A study of Homo sapiens with 18 samples.

Results

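The ATF4 stress response core is a set of 10 genes: the transcription factors ATF4, ATF5, ATF3 and DDIT3, the regulator TRIB3, and the effectors CHAC1, SESN2, ASNS, INHBE and VLDLR. A gene was represented by its brightest probe set among those annotated with its symbol alone, and all 10 genes had one, out of 18417 genes on the array. ATF4 had 2 such probe sets and each other gene 1. All 10 passed the filter on dim genes and were among the 14209 genes tested. Transcripts were measured on 18 Affymetrix Human Gene 1.0 ST arrays in H1, an established human embryonic stem cell line. H1 cells were either pluripotent, grown without feeders on Matrigel in mTeSR1, or embryoid bodies, aggregates formed in AggreWell plates and differentiated in APEL medium for 6 days. Each state held 3 arrays of cells with no lentivirus, 3 arrays of cells infected with lentivirus carrying a control shRNA, and 3 arrays of cells infected with lentivirus carrying an shRNA against KBTBD8, whose product recruits substrates to the ubiquitin ligase CUL3. All transduced groups therefore share lentiviral infection, 1 shRNA construct is named per treatment, and all cells come from 1 line. The design text calls the samples independent without naming separate cultures. The error behind each p-value reflects only how far arrays of the same group differ, which may be technical variation.

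The integrated stress response begins when kinases that sense unfolded protein, amino acid shortage, double-stranded RNA or haem shortage phosphorylate the initiation factor eIF2. General translation slows, while the ATF4 message, which carries upstream open reading frames, is translated more. ATF4 protein then raises genes for amino acid supply, for redox balance and, with its partner CHOP (the product of DDIT3), for cell death. Because ATF4 is set largely by translation, its transcript level is not a measure of its protein.

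The arrays numbered 2 of the KBTBD8 shRNA stood with the opposite state and are given apart. Across the tested genes, the one labelled pluripotent correlated at 0.990 with the other KBTBD8 shRNA embryoid bodies and at 0.908 with its own group. The one labelled embryoid body correlated at 0.993 with the other KBTBD8 shRNA pluripotent arrays and at 0.914 with its own. The other 16 arrays were each nearest to their own group. The mean level of 8 neural plate markers, such as PAX6, was 5.33 to 5.51 in untransduced pluripotent cells and 8.56 to 8.59 in untransduced embryoid bodies, against 8.16 and 5.27 on these arrays, labelled pluripotent and embryoid body. The main fit left both out, so it used 16 arrays with 2 in each KBTBD8 shRNA group. Each comparison of the members is also given for all 18 arrays as labelled, where a comparison without KBTBD8 shRNA arrays keeps its differences and changes only in its errors. Pluripotency markers averaged 9.38 to 9.56 in untransduced pluripotent cells and 7.81 to 7.89 in untransduced embryoid bodies. KBTBD8 itself averaged 6.84 ± 0.39 (SD, n = 3) with the control shRNA and 5.04 ± 0.12 (n = 2) with its own shRNA in pluripotent cells. In embryoid bodies it averaged 4.75 ± 0.31 (n = 3) and 4.76 ± 0.15 (n = 2).

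ATF4 binds, with a C/EBP partner, a composite site whose letters were searched as TGATGNAA on both strands in RefSeq promoter windows (GRCh38.p14, 250 bases before to 50 bases after a transcript start). The table held 17 windows for 9 of the 10 genes, with no entry for INHBE. The motif lay in 1 window each of ASNS, CHAC1 and ATF3, which is 3 of 9 genes, against 4.46% of the 27305 genes and 3.62% of the 35116 windows in the table. The matched stretches are shown because they place the element in members whose transcripts are followed below, with the match in capitals and every stretch written 5′ to 3′ along the gene's strand.
ASNS: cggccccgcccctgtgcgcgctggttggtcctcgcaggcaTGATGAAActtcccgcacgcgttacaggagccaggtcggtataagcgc
CHAC1: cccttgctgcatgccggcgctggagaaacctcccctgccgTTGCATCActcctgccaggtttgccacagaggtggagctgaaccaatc
ATF3: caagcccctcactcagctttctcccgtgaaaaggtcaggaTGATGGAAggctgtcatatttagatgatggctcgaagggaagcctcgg
The ASNS stretch is chr7:97872429-97872516 on the minus strand, upstream of the gene, and its match begins 68 bases before the transcript start. The CHAC1 stretch is chr15:40953222-40953309 on the plus strand, and the match, on the strand opposite to the gene, begins 209 bases before the start. The ATF3 stretch is chr1:212565176-212565263 on the plus strand, with the match 191 bases before the more distal of its annotated starts. No window of a member held the cAMP response element TGACGTCA (2.25% of genes) or the ER stress element (0.0916% of genes). A match is a run of letters and not evidence of binding, and its absence speaks only of these windows.

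Most members were highest in pluripotent cells with the KBTBD8 shRNA and lowest in embryoid bodies, with ATF4, ATF3 and DDIT3 departing from this order. Of the 10 genes, 9 had their highest group mean in pluripotent KBTBD8 shRNA cells, and for 8 of these (all but ATF3) the arrays of that group did not overlap those of the next highest group. Of all 14209 genes 18.6% had their highest mean in that group, which holds 2 arrays, and 7.77% did so without overlap. ATF4 was highest in untransduced pluripotent cells instead. The lowest mean lay in untransduced embryoid bodies for CHAC1, SESN2, ASNS, INHBE and VLDLR. It lay in embryoid bodies of the KBTBD8 shRNA for ATF5 and TRIB3, in those of the control shRNA for ATF4, and in pluripotent control shRNA cells for DDIT3 and ATF3. CHAC1, for example, averaged 9.31 ± 0.17 (SD, n = 2) in pluripotent KBTBD8 shRNA cells, 8.32 ± 0.60 (n = 3) in untransduced and 7.53 ± 0.06 (n = 3) in control shRNA pluripotent cells. In embryoid bodies it averaged 6.76 ± 0.18 with the control shRNA, 6.60 ± 0.20 with the KBTBD8 shRNA, which overlapped, and 6.20 ± 0.06 untransduced. All levels are log2 intensities and are compared within a gene only. The standardised level averaged over the 10 members (each gene scaled to its SD over the 16 arrays) was 1.47 and 1.55 on the KBTBD8 shRNA pluripotent arrays. Untransduced pluripotent arrays spread from 0.19 for number 1 to 1.03 and 0.91 for numbers 2 and 3, a wider spread than the −0.18 to −0.0015 of the control shRNA arrays. The array labelled pluripotent that is read apart stood at −0.60 and the one labelled embryoid body at 1.30.

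**Figure D1:**
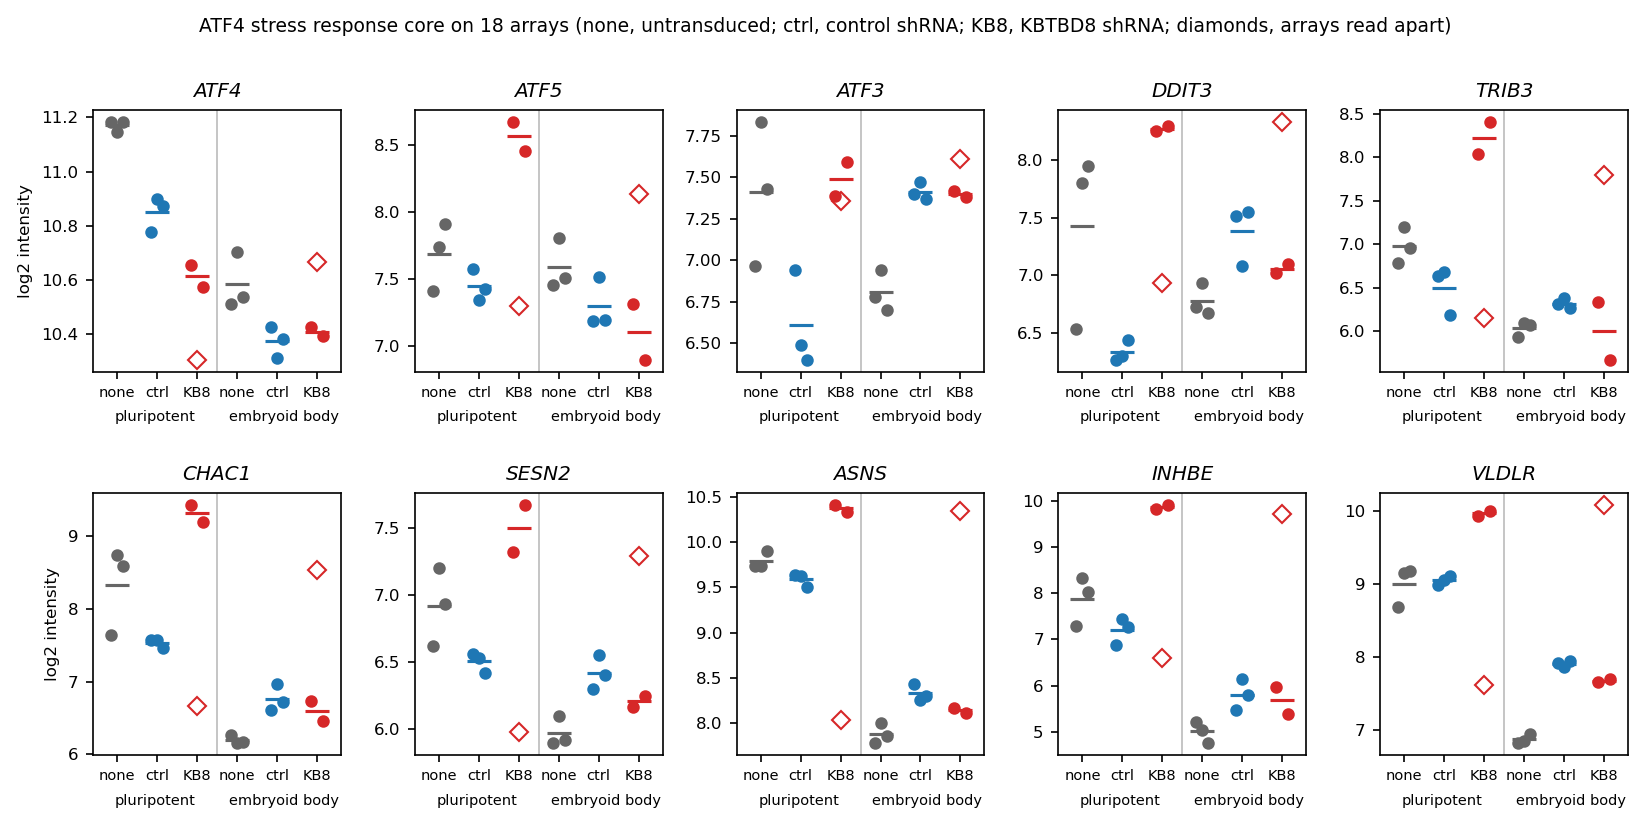
Log2 intensity (vertical axis) of the 10 genes on each array by state and treatment, with bars at group means of the 16 arrays in the fit and diamonds for the arrays read apart. In pluripotent cells the KBTBD8 shRNA points lie above the control shRNA points for every gene but ATF4, and the diamonds take the level of the opposite state for most genes.

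**Figure D2:**
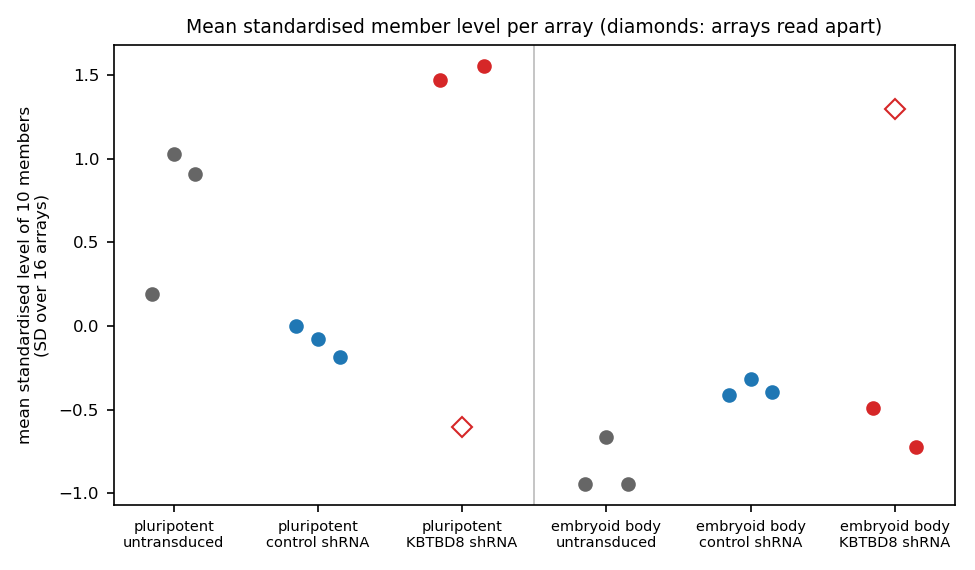
Mean standardised level of the 10 genes on each array (vertical axis, in SD over 16 arrays) for the 6 groups, with diamonds for the arrays read apart. The KBTBD8 shRNA pluripotent arrays stand at 1.47 and 1.55, above every array of the other 5 groups in the fit.

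Compared with the control shRNA, the KBTBD8 shRNA in pluripotent cells went with a rise of every member other than ATF4 itself. The comparison with untransduced cells, which differed, is given further below. Against the control shRNA, 9 of 10 members rose and none fell at an adjusted p under 0.05, with a median difference over the 10 of 1.06 on the log2 scale. Over all 14209 genes the median was −0.0126, and 8.43% of genes rose and 5.58% fell. The 9 members were higher without overlap between the groups, as were 23.5% of all genes. The largest rise was that of INHBE, which encodes the activin beta E subunit, at 6.38-fold.

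Among the transcription factors, ATF4 read 10.78, 10.90 and 10.87 on the control shRNA arrays and 10.65 and 10.57 on the KBTBD8 shRNA arrays. The KBTBD8 values were lower and did not overlap, but the difference of −0.24 ± 0.08 (standard error) missed the threshold (limma, adjusted p = 0.072). It passed with a stricter filter (adjusted p = 0.0458) and with an intensity trend in the variances (0.017). The fainter ATF4 probe set did not separate the groups, at 7.77, 7.80 and 7.67 against 7.84 and 7.49. DDIT3, which encodes CHOP, read 6.26, 6.30 and 6.44 with the control shRNA and 8.25 and 8.29 with the KBTBD8 shRNA. Every KBTBD8 array was thus above every control array, and DDIT3 rose by 1.94 ± 0.28, or 3.83-fold (adjusted p = 0.00033). ATF5, a bZIP factor whose translation is controlled like that of ATF4, read 7.58, 7.34 and 7.42 against 8.68 and 8.45. It rose by 1.12 ± 0.16 (adjusted p = 0.00033), with no overlap. ATF3, a stress-induced factor of the same family, read 6.94, 6.49 and 6.40 against 7.39 and 7.59. Its control arrays were spread, and the rise of 0.88 ± 0.19 (adjusted p = 0.0066) was the call among the 9 that was lost when KBTBD8 shRNA array 3 was left out (0.78, adjusted p = 0.09). The other 8 calls were kept in each of the 16 fits without 1 array.

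TRIB3, a pseudokinase that feeds back on ATF4, read 6.64, 6.68 and 6.19 with the control shRNA and 8.03 and 8.41 with the KBTBD8 shRNA, a rise of 1.72 ± 0.18 (3.29-fold, adjusted p = 2.8e-05). CHAC1, an enzyme that degrades glutathione, read 7.57, 7.57 and 7.46 against 9.43 and 9.19 and rose by 1.78 ± 0.22 (3.43-fold, adjusted p = 0.00011). In both genes the lowest KBTBD8 array lay more than 1 log2 unit above the highest control array. INHBE read 6.89, 7.44 and 7.26 against 9.83 and 9.91, a rise of 2.67 ± 0.26 (adjusted p = 1.3e-05), with a gap of more than 2 log2 units between the groups. Smaller rises came from ASNS, which makes asparagine (9.64, 9.63 and 9.50 against 10.41 and 10.33), VLDLR, a lipoprotein receptor (8.98, 9.05 and 9.11 against 9.93 and 10.002), and SESN2, a leucine sensor that restrains mTORC1 (6.56, 6.53 and 6.42 against 7.32 and 7.68). Their differences were 0.78 ± 0.09, 0.92 ± 0.12 and 0.99 ± 0.14, with adjusted p of 6.9e-05, 0.00013 and 0.00034, and none overlapped.

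On all 18 arrays as labelled, DDIT3 (1.49, adjusted p = 0.0458) and ATF3 (0.84, 0.014) kept the call, 2 of 10, where 2.29% of genes rose and 2.84% fell. The remaining rises fell short there, from 1.58 for INHBE and 1.03 for TRIB3 to 0.13 for VLDLR and 0.0056 for ASNS. The array labelled pluripotent that is read apart gave 6.59 for INHBE, 6.67 for CHAC1 and 8.04 for ASNS, below all control shRNA pluripotent arrays. The calls of 7 members thus rest on reading that array apart and on 2 KBTBD8 shRNA arrays. Some markers of cell types moved in this comparison. Of 8 endoderm and yolk sac markers 5 fell (TTR −1.35, APOA2 −1.21), with list means of 6.06 to 6.14 in control and 5.53 to 5.54 in KBTBD8 shRNA cells. Of the pluripotency markers 1 of 13 rose and 2 fell, with means of 9.58 to 9.71 and 9.58 to 9.60. Of the rest, 1 of 8 neural plate and 1 of 7 neural crest markers fell, 1 of 4 trophoblast markers rose and 0 of 5 mesoderm markers passed. Their part in the members' rise was not tested, and fewer expressing cells cannot be told apart from less RNA per cell in such bulk samples.

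In embryoid bodies the same shRNA went with no change of a member past the threshold. By limma none of the 10 passed and the smallest adjusted p was 0.36, while 2.84% of genes rose and 2.96% fell. None of the 10 had an unadjusted p under 0.05, against 2296 of the 14209 genes tested. ASNS read 8.43, 8.25 and 8.30 with the control shRNA and 8.17 and 8.11 with the KBTBD8 shRNA, a difference of −0.19 ± 0.09. The KBTBD8 values were lower without overlap, as also for VLDLR (−0.23) and SESN2 (−0.21), and the groups overlapped for the other 7. Of all genes 18.2% were lower without overlap in these groups of 3 and 2 arrays. CHAC1 read 6.61, 6.96 and 6.72 against 6.74 and 6.45 and INHBE 5.46, 6.15 and 5.81 against 5.97 and 5.40, both overlapping. The differences of the other members were −0.014 (ATF3), 0.036 (ATF4), −0.20 (ATF5), −0.33 (DDIT3) and −0.31 (TRIB3). The 95% interval of the difference ran from −0.64 to 0.31 for CHAC1, from −0.68 to 0.44 for INHBE and from −0.92 to 0.27 for DDIT3. All 3 upper bounds lie below the rises of these genes in pluripotent cells, but the missing calls do not show that the shRNAs act alike in embryoid bodies. All 7 neural crest markers fell in this comparison, with list means of 9.41 to 9.48 and 7.51 to 7.76. Of the endoderm markers 4 of 8 fell, as did 1 of 5 mesoderm and 1 of 8 neural plate markers. Higher were 4 of 8 neural plate, 4 of 13 pluripotency and 1 of 4 trophoblast markers. Neural plate means were 7.62 to 7.67 and 8.22 to 8.30, and pluripotency means 8.52 to 8.54 and 8.80 to 8.84. Their part in the members' values was not tested. On 18 arrays, where 0.971% of genes rose and 1.51% fell, again no member passed (limma). There 0 members and 1885 of all genes had an unadjusted p under 0.05. The members' differences ran from 0.056 (ATF3) to 1.22 (INHBE), all above 0. The array labelled embryoid body that is read apart was above every control embryoid body array for all 10 members, with INHBE at 9.71 and ASNS at 10.34. The share of all genes for which this single array was above them was not counted. KBTBD8 itself did not pass in embryoid bodies (difference 0.0059 ± 0.26, adjusted p = 0.998), and it fell by 1.79 ± 0.26 in pluripotent cells (adjusted p = 0.00028). It lay below the 40th percentile of the array in control shRNA embryoid bodies already (percentiles 23.6 to 33), where a further fall may not be measurable, and in pluripotent cells with its shRNA (32.8 and 34.4).

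The difference between the states was tested directly as the KBTBD8 effect in embryoid bodies minus that in pluripotent cells. It was below 0 and past the threshold for 9 of 10 members, where 6.12% of genes were called lower and 3.74% higher. INHBE (−2.80 ± 0.37, adjusted p = 0.00019), DDIT3 (−2.26 ± 0.40, 0.0018), TRIB3 (−2.03 ± 0.26, 0.00013) and CHAC1 (−1.94 ± 0.32, 0.0011) had the largest values. ATF5 (−1.31), SESN2 (−1.20), VLDLR (−1.15) and ASNS (−0.97) followed. ATF4 had the opposite sign and did not pass (0.27 ± 0.12, adjusted p = 0.17). ATF3 passed narrowly (−0.89, adjusted p = 0.049) and lost the call in 13 of the 16 fits without 1 array (values −1.06 to −0.79, adjusted p from 0.013 to 0.18). It also lost it without the filter on dim genes (adjusted p = 0.071) and under quantile normalization (0.057). The other 8 kept theirs in all 16. On 18 arrays none passed (limma), where 2.06% of genes were lower and 1.61% higher, and ASNS (0.54) and VLDLR (0.44) changed sign. There 3 members and 2804 of the 14209 genes had an unadjusted p under 0.05.

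**Figure D3:**
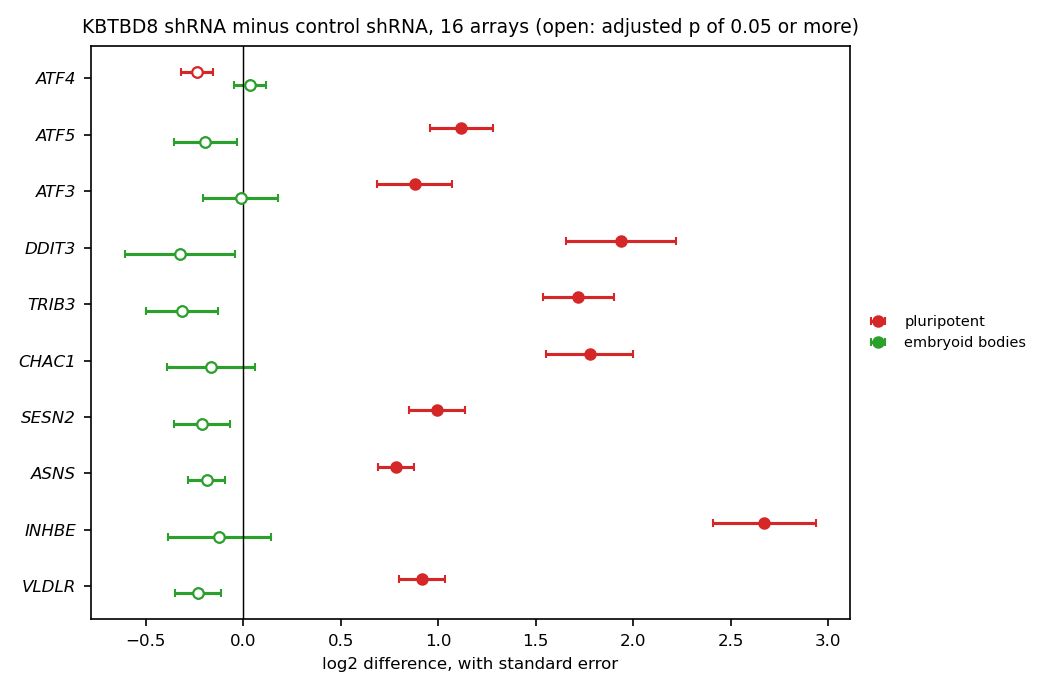
KBTBD8 shRNA minus control shRNA (horizontal axis, log2 difference with standard error) for the 10 genes in pluripotent cells and embryoid bodies, on 16 arrays, with open points where the adjusted p is 0.05 or more. Every pluripotent point but ATF4 lies at 0.78 or above, and every embryoid body point lies between −0.33 and 0.036.

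The response in pluripotent cells was also set against untransduced cells, which share the KBTBD8 shRNA arrays with the comparison above. Here 8 members rose and ATF4 fell, where 17.2% of genes rose and 11.1% fell. INHBE was 3.96-fold higher (1.99 ± 0.26, adjusted p = 8.5e-05), TRIB3 2.37-fold (1.24 ± 0.18, 0.00018) and VLDLR 1.95-fold (0.96 ± 0.12, 4.3e-05). ATF5 (0.88 ± 0.16, 0.0011) and ASNS (0.58 ± 0.09, 0.0004) rose as well. ATF4 read 11.18, 11.15 and 11.18 untransduced and 10.65 and 10.57 with the KBTBD8 shRNA, and fell by 0.56 ± 0.08 (adjusted p = 0.0002). Its fainter probe set did not separate these groups, at 7.55 ± 0.29 untransduced and 7.66 ± 0.25 with the KBTBD8 shRNA. With both probe sets averaged the difference was −0.22 and did not pass (adjusted p = 0.15). ATF3 did not differ past the threshold (0.081 ± 0.19, adjusted p = 0.79), and the untransduced arrays read 6.96, 7.84 and 7.43, on both sides of the KBTBD8 shRNA arrays. DDIT3 read 6.53, 7.80 and 7.95 untransduced, with number 1 far below the others. Its rise of 0.84 (adjusted p = 0.036) was 0.40 without that array, still past the threshold, and lost the call without KBTBD8 shRNA array 1 (0.86, adjusted p = 0.12) or 3 (0.82, 0.15). CHAC1 rose by 0.99 ± 0.22, by 0.64 without untransduced array 1 and, with the call lost, by 0.87 without KBTBD8 shRNA array 1 (adjusted p = 0.0511). SESN2 rose by 0.58 ± 0.14 and lost the call without KBTBD8 shRNA array 3 (0.40, 0.14). In a fit of these groups alone, DDIT3 (adjusted p = 0.13) and SESN2 (0.061) did not pass. On 18 arrays, where 7.28% of genes rose and 6.86% fell, only ATF4 passed (−0.66, adjusted p = 0.00085), and ASNS changed sign (−0.20).

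In embryoid bodies against untransduced cells, 4 members passed (ATF3, ASNS and VLDLR higher, ATF5 lower), where 22.5% of genes rose and 18.6% fell. VLDLR rose by 0.80 ± 0.12 (adjusted p = 7.8e-05) and kept its call without any 1 array. ATF3 (0.59, adjusted p = 0.022), ASNS (0.26, 0.036) and ATF5 (−0.48, 0.027) each lost theirs without 1 array, such as KBTBD8 shRNA array 3 (adjusted p = 0.073, 0.082 and 0.28). ATF3 and ASNS also lost it without KBTBD8 shRNA array 1 (0.11 and 0.18) and without untransduced array 1 (0.0501 and 0.11) or 3 (0.068 and 0.085), and ATF5 without untransduced array 2 (0.098). The difference of ATF5 was −0.28 without KBTBD8 shRNA array 3. INHBE (0.67, adjusted p = 0.0524) missed the threshold and passed in 7 of the 16 fits without 1 array. Its difference was 0.38 without KBTBD8 shRNA array 1 and 0.96 without KBTBD8 shRNA array 3. INHBE was dim in the untransduced embryoid bodies, at percentiles 31.7 to 38.2 of the array. CHAC1 (0.40), DDIT3 (0.28), SESN2 (0.24), TRIB3 (−0.031) and ATF4 (−0.18) did not pass. With only the groups compared, INHBE (0.025) and CHAC1 (0.024) passed and ASNS (0.073) did not. On 18 arrays, where 17.6% of genes rose and 14.1% fell, ATF3 (0.66, adjusted p = 0.011) and VLDLR (1.61, 0.0473) passed. Cell type markers moved in the same comparison: 11 of 13 pluripotency, 7 of 7 neural crest, 3 of 8 endoderm, 4 of 5 mesoderm and 4 of 4 trophoblast markers were higher, and 6 of 8 neural plate and 2 of 13 pluripotency markers were lower (16 arrays). Pluripotency markers averaged 7.81 to 7.89 untransduced and 8.80 to 8.84 with the KBTBD8 shRNA, neural crest markers 5.95 to 6.03 and 7.51 to 7.76, and neural plate markers 8.56 to 8.59 and 8.22 to 8.30. Their part in the members' differences was not tested.

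With the KBTBD8 shRNA against the control shRNA in pluripotent cells, 22 of 40 tested genes of amino acid supply rose and 6 of 20 ER chaperone genes fell on 16 arrays, where 8.43% of all genes rose and 5.58% fell. On 18 arrays, where 2.29% of all genes rose and 2.84% fell, 1 of the 40 rose and 6 ER chaperone genes fell. Of the genes for serine, glycine, one-carbon, proline and cysteine synthesis, 8 of 12 tested members rose and 0 fell (median 0.37), with the mitochondrial folate enzyme ALDH1L2 (1.42), the cysteine-producing CTH (1.03) and MTHFD2 (0.61). Among amino acid transporters 6 of 12 tested members rose and 0 fell (median 0.30), with the cystine importer SLC7A11 at 1.65 (adjusted p = 1.1e-06) and SLC1A4 at 0.84. Of the cytosolic aminoacyl-tRNA synthetases, which charge tRNAs, 8 of 16 tested members rose and 0 fell (median 0.25), with SARS1 at 0.90 and CARS1 at 0.68. Among other outputs of ATF4 and CHOP 6 of 18 tested members rose and 0 fell (median 0.17), with DDIT4 (1.70), the hormone FGF21 (1.66), VEGFA (1.39) and STC2 (1.30) among them. Of the partner factors 5 of 13 tested members rose and 0 fell (median 0.30), with NUPR1 at 0.96 and CEBPG, a dimer partner of ATF4, at 0.71.

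The shares of 8.43% and 5.58% over all genes apply to the following lists too. Of the eIF2 kinases, eIF2 and its regulators 1 of 18 tested members rose and 0 fell (median 0.12), the riser being PPP1R15A (0.85, adjusted p = 0.00031), the stress-induced subunit of the eIF2 phosphatase. None of the kinase genes passed, with EIF2AK4 (GCN2) at 0.26 and EIF2AK1 at −0.25, nor did the GCN2 inhibitor IMPACT (0.29). In the list of ER chaperones and degradation genes of the ATF6 and XBP1 arms 1 of 20 tested members rose and 6 fell (median −0.17). SDF2L1 (−1.01, adjusted p = 6.3e-05), HSPA5, the chaperone BiP (−0.74, 0.0013), and CRELD2 (−0.58, 0.0021) fell, and the gene that rose, named after its value was seen, was ATF6 (0.42). Targets of p53, a list that leaves out SESN2 and ATF3, had 2 rises and 1 fall among 14 (median 0.062), with FAS at 0.61 and ZMAT3 at −0.54. NRF2 targets had 2 rises and 1 fall among 9 (median −0.23), with SRXN1 at 0.52 and NQO1 at −0.43. On 18 arrays the counts of rises and falls were 1 and 0 for amino acid synthesis, 0 and 0 for transporters, 0 and 0 for synthetases, 3 and 0 for other outputs, 1 and 0 for partner factors, 1 and 0 for eIF2 and its regulators, and 0 and 6 for ER chaperones. In embryoid bodies the same comparison on 16 arrays, where 2.84% of all genes rose and 2.96% fell, called 0 of 12 synthesis genes, 0 of 16 synthetases, 0 of 20 ER chaperones and 1 of 12 transporters (SLC7A11, −0.63). SESN3 (−0.42), TP53INP1 (−0.49) and HMOX1 (−0.55) were the other genes of the 9 lists that passed there, all lower. The direct test of the state difference called 7 of 12 synthesis genes, 6 of 16 synthetases and 4 of 12 transporters lower in embryoid bodies, and 4 of 20 ER chaperones higher (SDF2L1 1.05, HSPA5 0.91), where 6.12% of all genes were lower and 3.74% higher. On 18 arrays it called 0, 0 and 0 of these lists lower and 3 ER chaperones higher. SLC7A11 (−2.28), FGF21 (−1.79), CTH (−1.39) and SARS1 (−0.95) were among the lower ones on 16 arrays.

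**Figure D4:**
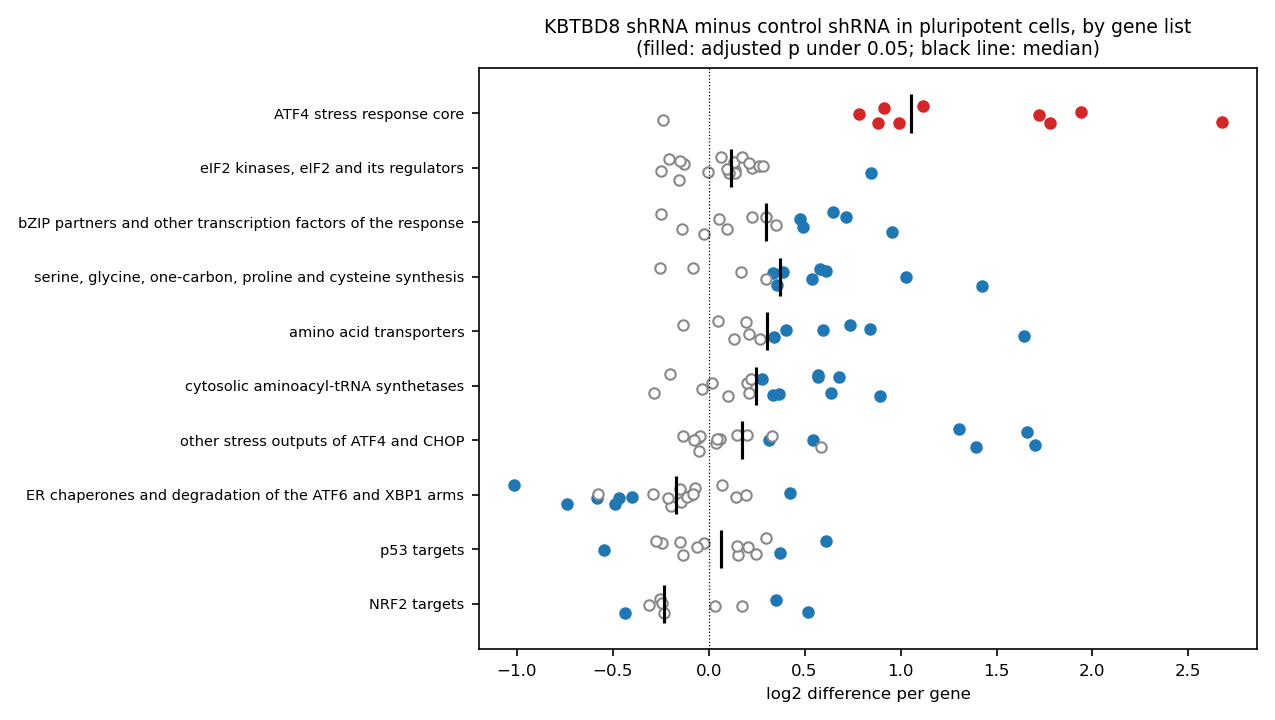
Log2 difference of KBTBD8 shRNA against control shRNA in pluripotent cells (horizontal axis, 16 arrays) for each tested gene of the core and of 9 related lists, filled where the adjusted p is under 0.05, with a black line at each median. The core has its median at 1.06, the lists of amino acid supply between 0.25 and 0.37, and ER chaperones at −0.17.

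In untransduced cells most of the core was lower in embryoid bodies than in pluripotent cells. The states also differ in medium and culture format, whose part in this and the other comparisons of the states was not tested. Of the 10 members 9 fell and none rose (median −0.94, against −0.0415 over all genes), where 26.3% of genes fell and 25.8% rose. INHBE read 7.30, 8.33 and 8.03 in pluripotent cells and 5.21, 5.05 and 4.77 in embryoid bodies, and fell by 2.87 ± 0.24 or 7.33-fold (adjusted p = 4.7e-08). INHBE lay at percentiles 31.7 to 38.2 of the array in these embryoid bodies, below the 40th percentile used as the filter on dim genes, so it passed the filter through other groups and the size of its fall rests on a dim level. VLDLR read 8.69, 9.15 and 9.18 against 6.82, 6.85 and 6.94 and fell 4.39-fold (−2.14 ± 0.11, 9.3e-11). CHAC1 read 7.64, 8.74 and 8.59 against 6.26, 6.16 and 6.17 and fell 4.37-fold (−2.13 ± 0.20, 2.3e-07). The pluripotent arrays were above the embryoid body arrays without overlap in all 3 genes. ASNS read 9.74, 9.74 and 9.90 against 7.78, 8.0 and 7.86, with little spread, and fell by 1.91 ± 0.08 (adjusted p = 2.3e-11). SESN2 (−0.95), TRIB3 (−0.94) and ATF4 (−0.59) also fell. The fainter ATF4 probe set averaged 7.55 ± 0.29 (SD) in pluripotent cells and 7.49 ± 0.21 in embryoid bodies. For ATF5 the states overlapped (−0.099 ± 0.15, adjusted p = 0.59).

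The calls of DDIT3 and ATF3 in untransduced differentiation depended on single arrays. DDIT3 read 6.53, 7.80 and 7.95 in pluripotent cells and 6.72, 6.93 and 6.67 in embryoid bodies, so that pluripotent array 1 lay below all embryoid bodies. It fell by 0.65 (adjusted p = 0.039), a difference that was −1.10 without that array (adjusted p = 4.2e-06). It did not pass without pluripotent array 2 (−0.47, 0.18) or 3 (−0.39, 0.22), nor without embryoid body array 1 (−0.63, 0.089) or 3 (−0.60, 0.1). ATF3 fell by 0.60 ± 0.17 (adjusted p = 0.0078) and lost the call without pluripotent array 2 (−0.39, 0.0505). DDIT3 also missed it without the filter on dim genes (0.0517) and in a fit of those groups alone (0.1). With the errors of the fit of all 18 arrays, 7 of 10 members fell, where 18.1% of genes fell and 20.5% rose, TRIB3 (adjusted p = 0.15) and DDIT3 (0.22) no longer passing with the same differences. No KBTBD8 shRNA array enters the means of this comparison.

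In control shRNA cells several effectors fell with differentiation, and DDIT3 and ATF3 rose. In them 5 members fell and 2 rose, where 25.2% of genes fell and 23.1% rose. ASNS read 9.64, 9.63 and 9.50 in pluripotent cells and 8.43, 8.25 and 8.30 in embryoid bodies (−1.26 ± 0.08, adjusted p = 5.3e-09), VLDLR fell by 1.14 (2.3e-07), INHBE by 1.39 (0.00014), CHAC1 by 0.77 (0.0045) and ATF4 by 0.48 (6.1e-05). DDIT3 rose from 6.26, 6.30 and 6.44 to 7.51, 7.08 and 7.55, every embryoid body array being higher (1.05 ± 0.25, adjusted p = 0.0025). ATF3 rose from 6.94, 6.49 and 6.40 to 7.40, 7.47 and 7.37 (0.80 ± 0.17, 0.001), also without overlap. ATF5 (−0.15), TRIB3 (−0.18) and SESN2 (−0.088) did not pass. These 7 calls were kept in each of the 16 fits without 1 array. With the errors of all 18 arrays, where 16.7% of genes fell and 17.1% rose, only ATF3 (0.0037) and ATF4 (0.0027) passed, and with both ATF4 probe sets averaged ATF4 did not (−0.22, adjusted p = 0.077).

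KBTBD8 shRNA cells had 8 members that fell with differentiation and none that rose, where 21.1% of genes fell and 17.3% rose. INHBE fell from 9.83 and 9.91 to 5.97 and 5.40, or 18.2-fold (−4.19 ± 0.29, adjusted p = 1.4e-08). Its embryoid body arrays lay at percentiles 47.6 and 39.5, near the 40th percentile of the filter, so the size of this fall also rests on a dim level. CHAC1 fell from 9.43 and 9.19 to 6.74 and 6.45, or 6.56-fold (−2.71 ± 0.25, 3.1e-07). TRIB3 (−2.22), ATF5 (−1.46), SESN2 (−1.29) and DDIT3 (−1.22) fell as well, as did VLDLR (−2.29) and ASNS (−2.23). ATF4 (−0.21 ± 0.09, adjusted p = 0.09) and ATF3 (−0.091 ± 0.21, 0.78) did not pass, though ATF4 did under quantile normalization (0.031) and with an intensity trend (0.027). The fainter ATF4 probe set was not lower in embryoid bodies, at 7.66 ± 0.25 (SD) in pluripotent cells and 7.79 ± 0.27 in embryoid bodies. On all 18 arrays no gene of the 14209 passed in this comparison (limma, 0% higher and 0% lower, with 763 genes and 1 member with an unadjusted p under 0.05). The differences there were −1.75 for INHBE and −1.19 for CHAC1. CHAC1, ASNS, INHBE and VLDLR are the 4 members that fell in all 3 treatments, and the share of all genes that did so was not counted. Among genes of amino acid supply, transporters fell in 10, 9 and 11 of 12 members in untransduced, control and KBTBD8 shRNA cells, with SLC7A5 at −3.37, −3.04 and −3.42, and SLC1A4 was the 1 transporter that rose, in untransduced cells (0.48). Synthetases fell in 12, 14 and 14 of 16, with none rising and TARS1 at −1.57, −1.13 and −1.55. Of the amino acid synthesis genes 10, 9 and 11 of 12 fell, with MTHFD2 at −1.71, −1.11 and −1.88, and PSPH rose in control shRNA cells (0.28). SLC1A4 and PSPH were named after their values were seen. Of all genes 26.3%, 25.2% and 21.1% fell in untransduced, control and KBTBD8 shRNA cells on 16 arrays, and 25.8%, 23.1% and 17.3% rose. On 18 arrays the falls in the 3 treatments were 7, 7 and 0 transporters, 8, 2 and 0 synthetases and 6, 3 and 0 synthesis genes. Of all genes 18.1%, 16.7% and 0% fell there, and 20.5%, 17.1% and 0% rose. In the list of other outputs directions were mixed, with 4 rises and 8 falls among 18 in untransduced cells (2 and 7 on 18 arrays), where PMAIP1, which encodes the BH3 protein NOXA, differed by −4.64 and SESN3 by 1.28. EIF2AK4, which encodes the amino acid sensor GCN2, differed by −1.17 (adjusted p = 1.6e-08).

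**Figure D5:**
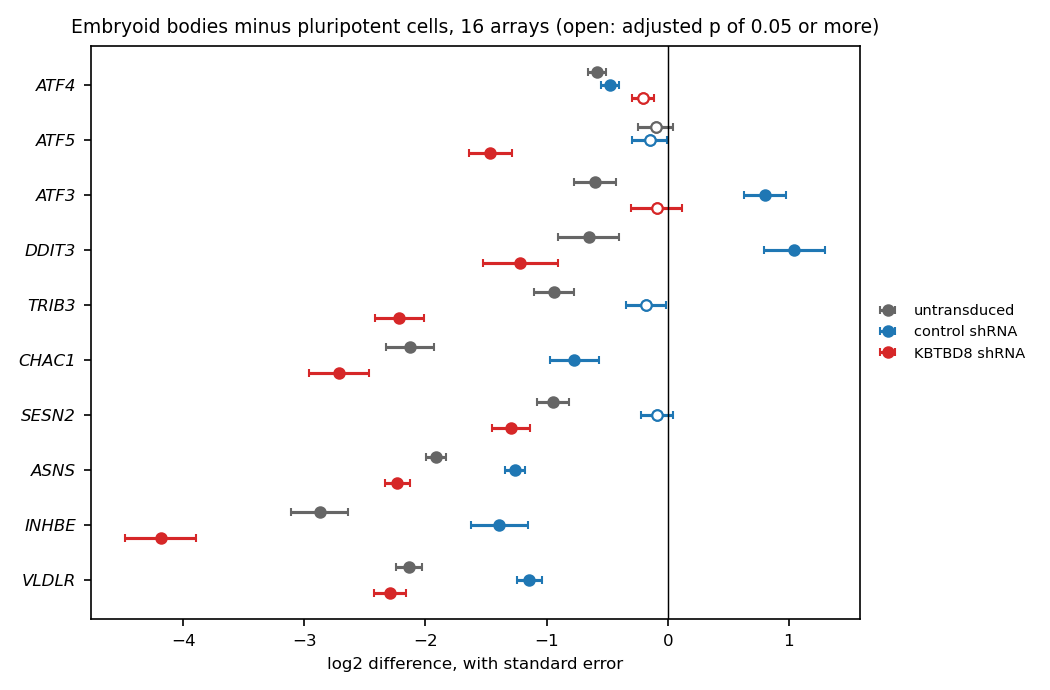
Embryoid bodies minus pluripotent cells (horizontal axis, log2 difference with standard error, 16 arrays) for the 10 genes in the 3 treatments, with open points where the adjusted p is 0.05 or more. DDIT3 and ATF3 lie right of 0 in control shRNA cells alone, at 1.05 and 0.80, and INHBE reaches −4.19 in KBTBD8 shRNA cells.

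Control shRNA and untransduced cells were then compared within each state, and the control shRNA arrays are the ones that also served the comparison with the KBTBD8 shRNA. In pluripotent cells 7 members were lower with the control shRNA and none was higher, where 12.1% of genes were lower and 17% higher. DDIT3 read 6.53, 7.80 and 7.95 untransduced and 6.26, 6.30 and 6.44 with the control shRNA, all control arrays being lower (−1.10 ± 0.25, adjusted p = 0.0048). ATF3 (−0.80 ± 0.17, 0.0032), CHAC1 (−0.79 ± 0.20, 0.0086) and ATF4 (−0.32 ± 0.07, 0.0051) were lower in each fit without 1 array. The average of both ATF4 probe sets gave −0.063 (adjusted p = 0.67). INHBE (−0.69, 0.039), SESN2 (−0.41, 0.026) and TRIB3 (−0.48, 0.04) lost their calls without untransduced array 2 (−0.47, −0.27 and −0.37), without untransduced array 3 (−0.61, −0.41 and −0.49) and without control array 3 (−0.72, −0.37 and −0.32), which left 4 calls. Each also lost it without a further array: INHBE without control pluripotent array 1 (−0.53), SESN2 without control pluripotent array 2 (−0.43) and TRIB3 without control embryoid body array 1 (−0.48). ASNS (−0.20), ATF5 (−0.24) and VLDLR (0.044) did not pass. In the p53 list 6 of 14 were lower. With the KBTBD8 shRNA against untransduced pluripotent cells 8 of 14 were lower and 1 higher, where 11.1% of genes were lower and 17.2% higher. With the control shRNA 6 of 8 endoderm markers were higher (5.22 to 5.34 untransduced, 6.06 to 6.14 control). So were 5 of 13 pluripotency, 3 of 8 neural plate, 3 of 7 neural crest, 2 of 5 mesoderm and 2 of 4 trophoblast markers. The pluripotency, neural plate and trophoblast lists each had 1 marker lower. The part of these lists in the members' difference was not tested. When only these groups were fitted INHBE, SESN2 and TRIB3 did not pass (adjusted p = 0.07, 0.068 and 0.057), and ASNS passed with an intensity trend (0.049). With the errors of all 18 arrays, where 5.12% of genes were lower and 6.93% higher, 2 members passed, ATF3 (0.01) and ATF4 (0.0497).

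In embryoid bodies the sign was the opposite for most members, with 6 higher under the control shRNA and ATF4 lower, where 24.6% of genes were higher and 20.2% lower. VLDLR read 6.82, 6.85 and 6.94 untransduced and 7.92, 7.87 and 7.94 with the control shRNA, without overlap (1.04 ± 0.11, 2.05-fold, adjusted p = 1.5e-06). ASNS (0.45 ± 0.08, 0.00051) and ATF3 (0.61 ± 0.17, 0.0098) were higher in each fit without 1 array. INHBE (0.80), CHAC1 (0.57) and SESN2 (0.45) passed and lost the call without control array 2 (0.62, 0.47 and 0.38), which left 4 calls, all higher. INHBE also lost it without untransduced array 3 (0.67), and its level was dim in untransduced embryoid bodies (percentiles 31.7 to 38.2). CHAC1 lost the call without control array 3 (0.59) or any 1 untransduced array (0.60, 0.55 and 0.55 without 1, 2 and 3). ATF4 (−0.21) lost it without control array 2 (−0.18), control array 3 (−0.22) and untransduced array 2 (−0.15). DDIT3 (0.60, adjusted p = 0.062) passed without control array 2 (0.75, 0.0476) and without untransduced pluripotent array 1 (0.00061) or 3 (0.041). Under quantile normalization ATF4 (adjusted p = 0.11), CHAC1 (0.12) and SESN2 (0.096) did not pass. When only these groups were fitted DDIT3 (0.0046) and TRIB3 (0.014) passed and ATF4 (0.0532) did not, and DDIT3 also passed with an intensity trend (0.033). With the errors of all 18 arrays, where 15% of genes were higher and 12.1% lower, only ATF3 passed (0.021). ATF5 (−0.29, adjusted p = 0.12) and TRIB3 (0.28, 0.17) did not pass. Cell type markers also differed between these embryoid bodies: 9 of 13 pluripotency, 7 of 7 neural crest, 5 of 8 endoderm, 5 of 5 mesoderm and 4 of 4 trophoblast markers were higher, and 6 of 8 neural plate and 2 of 13 pluripotency markers were lower. Neural crest markers averaged 5.95 to 6.03 untransduced and 9.41 to 9.48 with the control shRNA, pluripotency markers 7.81 to 7.89 and 8.52 to 8.54, endoderm markers 5.08 to 5.15 and 6.64 to 6.69, and neural plate markers 8.56 to 8.59 and 7.62 to 7.67. Their part in the members' difference was not tested, and the virus cannot be told apart from other differences between transduced and untransduced cultures.

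Tested directly, differentiation with the control shRNA minus differentiation without virus was above 0 and past the threshold for 8 members, where 8.26% of genes were higher and 8.61% lower. DDIT3 (1.70 ± 0.36, adjusted p = 0.0034), INHBE (1.48 ± 0.33, 0.0057), ATF3 (1.41 ± 0.24, 0.00073) and CHAC1 (1.36 ± 0.28, 0.0034) had the largest values, and VLDLR (0.99), SESN2 (0.86) and ASNS (0.65) passed too. TRIB3 (0.76, 0.034) lost its call in 8 of 16 fits without 1 array (0.60 to 0.86, adjusted p up to 0.091), and missed it under quantile normalization (0.0506). The other 7 kept theirs. ATF4 (0.11) and ATF5 (−0.050) did not pass. With the errors of all 18 arrays, where 2.88% of genes were higher and 2.36% lower, ATF3 alone passed (0.0034).

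Members followed each other to different degrees across the 16 arrays, which fall into 6 groups and are not independent points. CHAC1 and INHBE correlated at 0.99, ASNS and VLDLR at 0.97, and CHAC1 and SESN2 at 0.96. The transcription factors followed less closely. The correlation with the mean of the other members was 0.98 for CHAC1 and 0.97 for SESN2, but 0.62 for DDIT3, 0.38 for ATF3 and 0.37 for ATF4. ATF3 and ATF4 correlated at −0.14 with each other. Outside the core, the 10 genes whose pattern over the 16 arrays was most like the mean standardised level of the members, by Pearson correlation, were BNC1 (0.97), CLIC6 (0.96), MX2 (0.96), CTH (0.94), PPP1R2 (0.93), NFE2L2 (0.93), CXCL5 (0.93), SLC22A20P (0.92), MYL11 (0.92) and TAC1 (0.92). Of these, CTH and NFE2L2 also belong to the pathway lists above.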

How the data were processed

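The deposited values are log2 intensities, 1 per probe set, which the authors made with GCRMA, per the submitters' processing notes. The notes name no version and do not give the log base, taken here from the method and the range of 1.54 to 13.89, nor which arrays were normalized in 1 run. Raw array files were not used here, so background correction was not repeated. Of 33297 probe sets 19460 had 1 gene symbol, 1754 several and 12083 none. Symbols were updated through RefSeq (GRCh38.p14), in which 31 were missing. The probe set with the highest mean over 18 arrays stood for a gene, and genes had to exceed their array's 40th percentile in 3 or more of the 18 to be tested. The precision is limited by the number of arrays.

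Genes were fitted with limma 3.58.1 in R 4.3.3, with 1 mean per group, empirical Bayes variances, 10 residual degrees of freedom (12 on 18 arrays) and Benjamini-Hochberg adjustment over all genes tested in each of 11 comparisons. Alternatives were all 18 arrays, no or a stricter filter (60th percentile), a replicate block, a fit of only the groups compared, quantile normalization, the mean of a gene's probe sets, an intensity trend in the variances and leaving out each array. The fit was tested on simulated data. The members and lists, and the choice to read 2 arrays apart, were made with earlier results of these data known. Members are given in every comparison, and of each list some of the 2 to 4 genes with the largest difference. Motif search and figures used Python 3.11.15, pandas 2.3.3 and matplotlib 3.10.9.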

Additional observations from a re-analysis of the deposited data

Results flagged for a closer look

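A test of the difference itself set 9 members apart between states under the KBTBD8 shRNA (effect in embryoid bodies minus effect in pluripotent cells, log2): ATF3 −0.89, ATF5 −1.31, DDIT3 −2.26, CHAC1 −1.94, TRIB3 −2.03, ASNS −0.97, INHBE −2.80, VLDLR −1.15 and SESN2 −1.20. The call of ATF3 was lost in 13 of 16 fits without 1 array.

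The same kind of test set 8 members apart between differentiation with the control shRNA and without virus: ATF3 1.41, DDIT3 1.70, CHAC1 1.36, TRIB3 0.76, ASNS 0.65, INHBE 1.48, VLDLR 0.99 and SESN2 0.86.

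The arrays outside the fit also carried signal above all control shRNA arrays of their labelled state. On the array labelled embryoid body with the KBTBD8 shRNA, number 2, this held for all 10 members (log2 intensity): ATF3 7.61, ATF4 10.66, ATF5 8.13, DDIT3 8.33, CHAC1 8.53, TRIB3 7.80, ASNS 10.34, INHBE 9.71, VLDLR 10.08 and SESN2 7.29. On the array labelled pluripotent, number 2, it held for ATF3 (7.36) and DDIT3 (6.93). The share of all genes above these control arrays was not counted for either array. The labels were kept, and whether the samples were exchanged was not tested.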

How the results depend on the processing

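Of 88 recounts of members called (11 comparisons, 8 alternatives), 77 stayed within 1.5 times the main count. Nearly all the rest came from keeping all 18 arrays as labelled, where the count was 2 for differentiation with the control shRNA, 0 with the KBTBD8 shRNA, 2 for KBTBD8 against control shRNA in pluripotent cells, 0 for its difference between states, 2 and 1 for control shRNA against untransduced pluripotent cells and embryoid bodies, 1 and 2 for KBTBD8 shRNA against the same, and 1 for the difference in differentiation. That fit adds the 2 arrays that stood with the opposite state. Fitting only the groups compared left 4 calls for control shRNA against untransduced pluripotent cells, and quantile normalization left 4 for embryoid bodies. The cause was not tested. Without 1 array the counts ranged from 4 to 7 and from 4 to 8 for these, from 2 to 6 for KBTBD8 shRNA against untransduced embryoid bodies, and from 8 to 9 for KBTBD8 against control shRNA in pluripotent cells. Where 1 KBTBD8 shRNA array remained, it is assumed to vary like the other groups.

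Some signs changed. On 18 arrays the turned values were ATF3 0.056, ATF5 0.15, DDIT3 0.10, CHAC1 0.48, TRIB3 0.28, ASNS 0.55, INHBE 1.22, VLDLR 0.57 and SESN2 0.15 for KBTBD8 against control shRNA in embryoid bodies, ASNS 0.54 and VLDLR 0.44 for the difference between states, ATF3 0.022 for differentiation with the KBTBD8 shRNA, and ASNS −0.20 and TRIB3 0.57 for KBTBD8 shRNA against untransduced pluripotent cells and embryoid bodies. Averaging both ATF4 probe sets gave ATF4 0.040 and ATF4 0.064 for control and KBTBD8 shRNA against untransduced embryoid bodies, and quantile normalization ATF3 0.012 for KBTBD8 against control shRNA there. Without 1 array the ranges that cross 0 were, for that comparison, −0.037 to 0.015 (ATF3), −0.40 to 0.012 (ATF5), −0.65 to 0.016 (TRIB3) and −0.41 to 0.17 (INHBE). They were −0.20 to 0.013 for ATF3 in KBTBD8 shRNA differentiation, −0.24 to 0.012 for ATF5 in untransduced differentiation, −0.16 to 0.087 for ATF5 in the difference in differentiation, −0.11 to 0.13 for VLDLR between control shRNA and untransduced pluripotent cells, and −0.14 to 0.30 (ATF3, pluripotent) and −0.36 to 0.30 (TRIB3, embryoid bodies) for KBTBD8 shRNA against untransduced cells.

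The shared replicate numbers are no pairing by the labels. Same-numbered arrays deviated from their group means with correlations from −0.38 to 0.40. The highest correlation, 0.40, was for KBTBD8 against control shRNA in pluripotent cells. The 4 comparisons with all pairs use the untransduced and control shRNA arrays, each array in more than 1 comparison. Counted once per comparison they make 24 entries, of which 1 was nearest to its own number. Comparisons with KBTBD8 shRNA arrays have 2 pairs, which give equal correlations by construction, so the count of 24 does not cover them. A replicate block moved no count of members called by over 1.5 times. Under the block ATF5 (−0.44, adjusted p = 0.0511) lost and INHBE (0.81, 0.015) gained the call for KBTBD8 shRNA against untransduced embryoid bodies. ATF3 (−0.89, 0.0538) lost it for the difference between states. It also gave ATF3 0.049 and INHBE 0.011 for KBTBD8 against control shRNA in embryoid bodies and TRIB3 0.033 against untransduced ones.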
